A study of Mus musculus with 11 samples.

Results

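The fatty acid desaturases and elongases were examined in the gonadal white adipose tissue (WAT) of mice fed a high fat diet (HFD) with or without iodomethylcholine (IMC), an inhibitor of the gut microbial enzyme that makes trimethylamine from choline. The group was defined by 9 gene symbols, of which Scd1, Scd2, Fads1, Fads3, Elovl1, Elovl3, Elovl5 and Elovl6 were read per mouse. These are 8 of the 12787 genes in the deposited table, and Fads2 was not analysed here. By the labels and the methods of the study, all mice were C57Bl6/J males without a genetic modification, on a diet with 60% fat for 20 weeks. The control group, called Vehicle in the labels and HFD here, held 5 mice after the submitters dropped a 6th library for quality. The IMC-treated group held 6 mice whose diet contained 0.06% w/w IMC. The labels give neither the age nor the cage of the mice. Each library was made from whole tissue of 1 mouse, in which fewer cells of a type and less RNA per cell cannot be told apart.

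Fatty acids are made as palmitate and then remodelled in the endoplasmic reticulum. Elongases of the Elovl family catalyse the first step of a cycle that adds a pair of carbons, and desaturases place double bonds with electrons passed on by cytochrome b5. Scd1 and Scd2 encode stearoyl-CoA desaturases, which turn saturated into monounsaturated fatty acids, the main fatty acids of stored triglyceride in fat. Fads1 and Fads2 desaturate polyunsaturated fatty acids, and Fads3 acts on the sphingoid bases of ceramides. Elovl6 extends palmitate to stearate, Elovl5 acts on polyunsaturated fatty acids, Elovl1 makes very long saturated and monounsaturated chains, and Elovl3 is known from brown fat and skin.

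The table holds log2 CPM, the reads of a gene as counts per 1e6 reads of the scaled library, on a log2 scale. Because these values move in steps of single reads, the reads themselves could be counted, and each library had between 22320022 and 25155366 reads on the listed genes. A gene was called where limma, run across all genes, gave a p under 0.05 after Benjamini-Hochberg adjustment. Of all genes, 40.9% were called, 20% as higher and 21.0% as lower in IMC-treated mice. Of the 8 desaturase and elongase genes, 3 rose (Scd1, Scd2 and Fads3), 1 fell (Fads1) and 4 did not pass the test (Elovl1, Elovl3, Elovl5 and Elovl6). The 3 genes that rose did so without overlap between the groups, as did 12.5% of all genes. In the other direction it was 10.5% of all genes and 0 of the 8, and 23.1% of all genes in either direction. An absolute log2 fold change over 1, in either direction, with a call was found in 1.59% of all genes and in 1 of the 8, Scd1. The median log2 fold change of the 8 genes was 0.36, and that of all genes was -0.03.

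All 4 desaturase genes analysed lie on chromosome 19, and Scd1 and Scd2 are near copies of each other. In GENCODE annotation of GRCm38, the same build as mm10, Scd1 lies on the minus strand of chromosome 19 from 44394455 to 44407879. Scd2 lies on the plus strand of the same chromosome from 44293674 to 44306864. Their coding sequences were identical at 90.3% of the aligned bases. The longest run that both share without a difference was 147 bases long and crosses from exon 4 into exon 5 of either gene. It is shown with 20 bases on each side, 5′ to 3′ on the coding strand, because a read within it matches both genes. With the paired reads that the paper describes, such a read can be placed only by a mate outside the run. Capitals mark the bases at which the genes differ. The Scd1 stretch spans chr19:44400321-44401825 and the Scd2 stretch chr19:44299682-44301265, with the intron between.
Scd1: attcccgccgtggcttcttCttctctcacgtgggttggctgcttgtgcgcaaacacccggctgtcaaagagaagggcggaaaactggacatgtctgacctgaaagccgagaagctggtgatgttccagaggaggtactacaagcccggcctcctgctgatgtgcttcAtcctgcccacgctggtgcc
Scd2: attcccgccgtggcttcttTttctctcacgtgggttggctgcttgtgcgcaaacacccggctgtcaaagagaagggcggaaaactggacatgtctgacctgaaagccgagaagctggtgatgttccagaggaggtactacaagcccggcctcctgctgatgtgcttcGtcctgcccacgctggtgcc
Over the whole transcripts, 3.03% of all windows of 50 bases in Scd1 also occurred in Scd2, and 2.68% of those in Scd2 occurred in Scd1. Scd1 likewise shared 3.49% of its windows with Scd3, which was not analysed here. The values of Scd1 and Scd2 are therefore uncertain by the read pairs that lie within shared stretches. In the coding sequences alone, Fads1 and Fads3 shared no window of this length, and neither did any pair of the 4 Elovl genes. Fads3 shared 5 of its 1298 coding windows with Fads2, which was not analysed here.

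Scd1 showed the largest change of the 8 genes. In HFD mice 1 to 5 it measured 12.42, 12.98, 12.22, 12.68 and 12.87 log2 CPM. In IMC-treated mice it measured between 13.60 and 14.36 log2 CPM, with a median of 13.90. Every IMC-treated mouse lay above every HFD mouse. Scd1 rose by 1.31 on the log2 scale (SE 0.20, adjusted p = 0.000282 by limma), or 2.48-fold with a 95% interval from 1.85 to 3.34. Of all 12787 genes, 99.8% had a lower log2 fold change. Scd1 took between 0.480% and 0.825% of the reads on listed genes in HFD mice and between 1.22% and 2.06% in IMC-treated mice. It ranked between 5 and 9 among all listed genes by CPM in HFD mice, and it ranked 1 in each of the 6 IMC-treated mice.

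Scd2, the isoform best known from brain and from developing tissues, rose by 0.66 on the log2 scale (SE 0.11, adjusted p = 0.000424 by limma). Its values in HFD mice 1 to 5 were 8.43, 8.94, 8.70, 8.75 and 8.85 log2 CPM. In IMC-treated mice they ranged from 9.12 to 9.72, with a median of 9.37. The groups did not overlap, and the rise corresponded to 1.58-fold (95% interval from 1.35 to 1.86). The rise of Scd1 was larger than that of Scd2. The log2 ratio of Scd1 to Scd2 was 3.90 ± 0.22 (SD, n = 5) in HFD mice, against 4.55 ± 0.19 (SD, n = 6) after IMC, and this ratio did not overlap between the groups. The difference of 0.65 gave p = 0.00216 in a two-sided exact permutation test over the 462 ways to split the mice, the smallest p this test can give. After adjustment over the 5 gene ratios tested in this way the exact p was 0.00541.

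Fads3, on the plus strand of chromosome 19 from 10041569 to 10060110, rose by 0.67 on the log2 scale (SE 0.08, adjusted p = 8.18e-05 by limma). HFD mice 1 to 5 had 8.48, 8.98, 8.73, 8.73 and 8.86 log2 CPM. IMC-treated mice had between 9.31 and 9.56 log2 CPM, with a median of 9.40, again with no overlap. The rise was 1.59-fold (95% interval from 1.40 to 1.80). Fads3 and Scd2 had nearly the same values in log2 CPM in each HFD mouse, and the log2 ratio between their levels per kilobase had an SD of 0.03 over these 5 mice. In IMC-treated mice that SD was 0.21. IMC-treated mouse 4 had the lowest Scd2 value of its group, 9.12 log2 CPM, and the second highest Fads3 value, 9.55 log2 CPM.

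**Figure D1:**
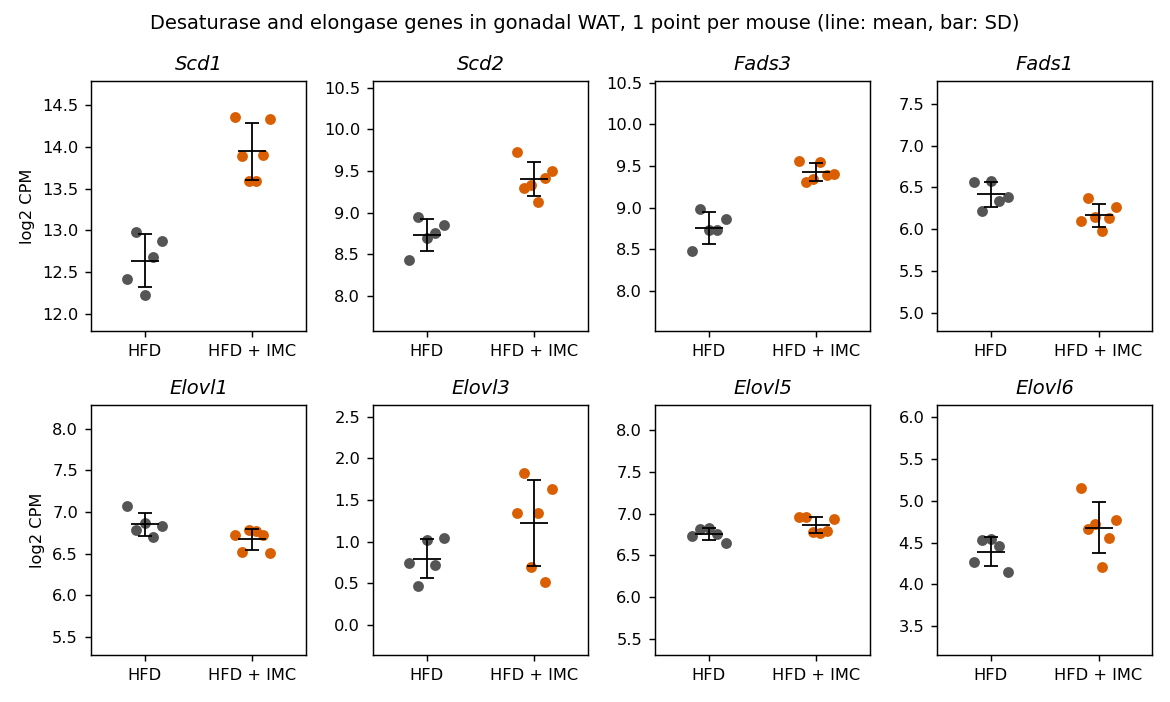
Expression of the 8 genes in log2 CPM (vertical axis, a span of 3 log2 units in each panel) in HFD mice (grey) and IMC-treated mice (orange). Each point is a mouse, the line is the mean and the bar the SD, and Scd1, Scd2 and Fads3 show no overlap between the groups while the other genes do.

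**Figure D2:**
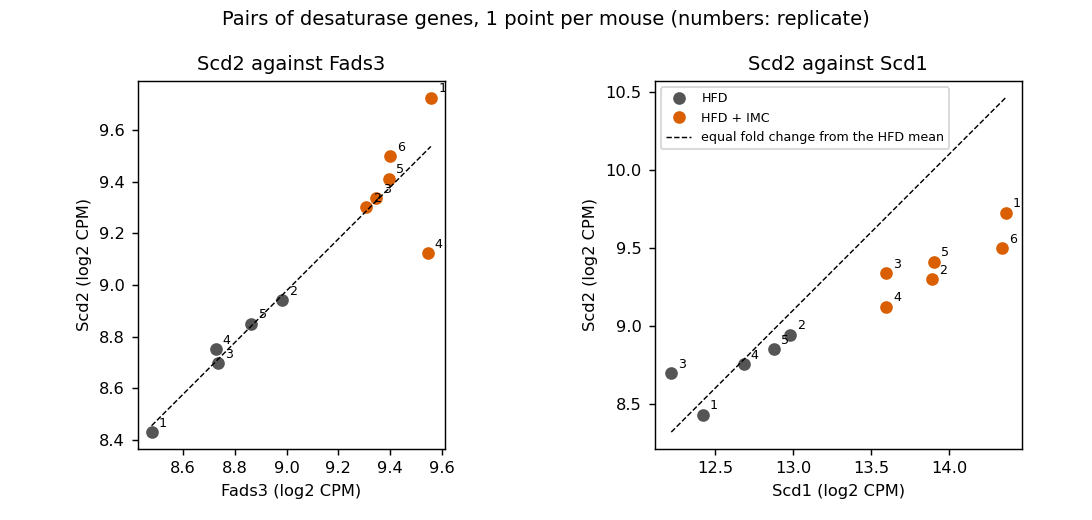
Scd2 against Fads3 (left) and against Scd1 (right) in log2 CPM, with 1 numbered point per mouse; the dashed line marks equal fold changes from the HFD mean. IMC-treated mouse 4 leaves the line on the left, and all 6 IMC-treated mice lie below it on the right, where Scd1 rose more than Scd2.

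Fads1, a desaturase of polyunsaturated fatty acid synthesis on the plus strand of chromosome 19 from 10182888 to 10196877, moved the other way. HFD mice 1 to 5 had 6.56, 6.22, 6.57, 6.34 and 6.39 log2 CPM, and IMC-treated mice had between 5.98 and 6.37 with a median of 6.14. The groups overlapped, and 4 of the 6 IMC-treated mice lay below all HFD mice. Fads1 fell by 0.25 on the log2 scale (SE 0.08, adjusted p = 0.0216 by limma). The call was lost without HFD mouse 1 (log2 fold change -0.21, adjusted p = 0.0596 by limma) and without HFD mouse 3 (log2 fold change -0.21, adjusted p = 0.0625 by limma).

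None of the 4 elongases passed limma's test after adjustment on the deposited values, and 2 of them, Elovl1 and Elovl6, had an unadjusted p under 0.05. Limma voom on the recovered reads also called 0 of the 4, while with the total reads as library size limma called 1, Elovl1 (log2 fold change -0.21, adjusted p = 0.0229). Elovl6, on chromosome 3 from 129532355 to 129638495, had 4.27, 4.53, 4.54, 4.46 and 4.15 log2 CPM in HFD mice 1 to 5. Its values in IMC-treated mice ranged from 4.21 to 5.15, with a median of 4.70. All but 1 IMC-treated mouse lay above all HFD mice, and the exception was mouse 4. The log2 fold change was 0.29 (95% interval from 0.00 to 0.58, adjusted p = 0.101 by limma). Without IMC-treated mouse 4 it was 0.38 and passed the test (adjusted p = 0.0169 by limma). Scd1 rose by more than Elovl6, since the log2 ratio of the pair was higher by 1.02 in IMC-treated mice without overlap between the groups (exact permutation test, adjusted p = 0.00541).

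Elovl5, on chromosome 9 from 77917364 to 77984519, varied little among the mice. It had 6.73, 6.82, 6.83, 6.75 and 6.65 log2 CPM in HFD mice 1 to 5 and between 6.77 and 6.97, with a median of 6.87, in IMC-treated mice. The groups overlapped, and the log2 fold change was 0.11 (95% interval from -0.01 to 0.23, adjusted p = 0.117 by limma). The log2 ratio of Elovl6 to Elovl5 differed by 0.18 between the groups (exact permutation p = 0.180, adjusted 0.225), so the test did not separate their changes. With IMC-treated mouse 4 left out it differed by 0.25 (exact permutation test, adjusted p = 0.0397), and with IMC-treated mouse 1 left out by 0.10 (exact permutation test, adjusted p = 0.427).

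Elovl1, on chromosome 4 from 118428093 to 118432953, had 7.07, 6.79, 6.87, 6.70 and 6.83 log2 CPM in HFD mice 1 to 5. In IMC-treated mice it ranged from 6.50 to 6.79, with a median of 6.72, and the groups overlapped. Its log2 fold change of -0.18 (95% interval from -0.34 to -0.02) did not pass the test (adjusted p = 0.0642 by limma). It passed without HFD mouse 4 (log2 fold change -0.22, adjusted p = 0.0385 by limma). The gene overlaps Cdc20 on the opposite strand, and the strand setting of the count is not given in the sources used here. The log2 ratio of Elovl6 to Elovl1 was higher by 0.47 in IMC-treated mice (exact permutation p = 0.0411, adjusted 0.0685). With IMC-treated mouse 4 left out the difference was 0.58 (exact permutation test, adjusted p = 0.0132).

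Elovl3, on chromosome 19 from 46131897 to 46135694, was near the lower end of the table, with between 32 and 80 reads per mouse. HFD mice 1 to 5 had 0.75, 0.47, 1.02, 0.72 and 1.04 log2 CPM. IMC-treated mice ranged from 0.51 to 1.82, with a median of 1.35, and had the widest spread of any of the 8 genes. Of these mice 4 lay above all HFD mice, and mice 3 and 5 lay within the HFD range. The log2 fold change was 0.43 (95% interval from -0.07 to 0.93, adjusted p = 0.159 by limma), and without IMC-treated mouse 5 it was 0.57 (adjusted p = 0.0464 by limma). The log2 ratio of Elovl6 to Elovl3 had a difference of -0.14 (exact permutation p = 0.621, adjusted 0.621), smaller than the SD of either group, and it ranged from -0.26 without HFD mouse 5 to -0.02 without IMC-treated mouse 2.

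The 8 genes were ordered by level per kilobase of their longest coding transcript. Scd1 came first, at 10.36 ± 0.32 log2 CPM per kilobase in HFD mice (SD, n = 5) and at 11.67 ± 0.34 after IMC (SD, n = 6). It was followed in both groups by Fads3, Scd2, Elovl1, Elovl5, Fads1, Elovl6 and Elovl3. Elovl3 had -0.11 ± 0.24 log2 CPM per kilobase in HFD mice (SD, n = 5) and 0.31 ± 0.52 after IMC (SD, n = 6). Over all 11 mice the log2 ratio of Scd1 to Fads3, the next gene, was 3.84 ± 0.43 per kilobase (SD). Each gene lay above the next in all 11 mice, except Scd2 and Elovl1. In HFD mice Scd2 exceeded Elovl1 by 0.29 ± 0.31 log2 CPM per kilobase (SD) and in 4 of 5 mice, a difference within its spread, while in IMC-treated mice the gap was 1.14 ± 0.26 (SD) in 6 of 6 mice. When coding length was used in place of transcript length, Scd2 came before Fads3, and in IMC-treated mice Elovl5 came before Elovl1.

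**Figure D3:**
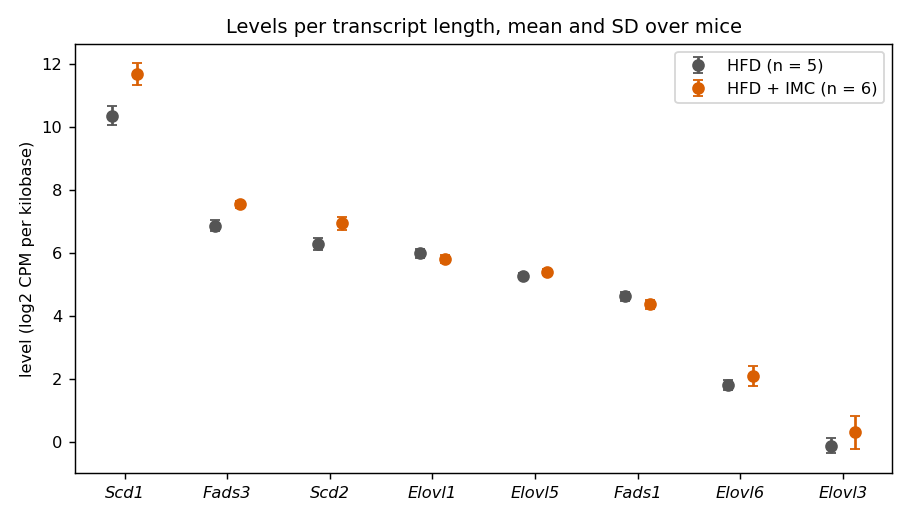
Level of each gene in log2 CPM per kilobase of transcript (vertical axis), in the order of the mean over all mice. Points are group means with the SD over 5 HFD mice (grey) and 6 IMC-treated mice (orange), and Scd1 stands at 10.36 in HFD mice and 11.67 in IMC-treated mice, above all others.

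Together the 8 genes summed to 7676 ± 1446 CPM in HFD mice (SD, n = 5) and to 17847 ± 3966 CPM after IMC (SD, n = 6). Scd1 made up 84.1% ± 2.43 of that sum in HFD mice (SD, n = 5) and 90.3% ± 1.57 after IMC (SD, n = 6). Without Scd1, the other genes summed to between 1058 and 1321 CPM in HFD mice and between 1592 and 1937 CPM in IMC-treated mice, again without overlap. Most of this sum came from Scd2 and Fads3, with means of 429 and 436 CPM in HFD mice and 681 and 689 CPM in IMC-treated mice. Each of the remaining genes had a mean of at most 116 CPM in HFD mice and at most 117 CPM in IMC-treated mice.

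Markers of adipocytes and macrophages also differed between the groups, in opposite directions. For comparison, 20% of all genes were called as higher and 21.0% as lower on the deposited values. All 10 adipocyte markers rose, Adipoq by 1.18 and Lep by 1.04 on the log2 scale, and their summed level lay between 9774 and 13877 CPM in HFD mice and between 19193 and 23364 CPM in IMC-treated mice. Of the 10 macrophage markers 9 fell and 0 rose, Trem2 by 0.79 and Cd68 by 0.61 on the log2 scale. Their summed level was between 12503 and 16630 CPM in HFD mice and between 6644 and 10427 CPM in IMC-treated mice. The part of these shifts in the changes of the desaturases and elongases was not tested. Each gene was also expressed relative to the mean log2 CPM of the 10 adipocyte markers in the same mouse, which by itself was 0.87 higher in IMC-treated mice. On this scale the median of all genes was -0.90 and limma called 93.8% of them, 93.5% as lower and 0.336% as higher. Of the 8 genes it called 1 as higher and 4 as lower. Every gene of a mouse is shifted by the same mean on this scale, so the genes are not independent of each other, and exact tests per gene are given.

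Relative to the adipocyte markers, Scd1 was 3.58 ± 0.14 log2 units above the marker mean in HFD mice (SD, n = 5) and 4.02 ± 0.27 above it after IMC (SD, n = 6). The difference was 0.44, with overlap of the groups (exact p = 0.0108 by permutation). Relative to Adipoq alone it was 0.13 and did not pass (adjusted p = 0.531 by limma). Scd2 and Fads3 each differed by -0.21 from the markers (exact permutation tests, p = 0.0390 and p = 0.0563). Fads1 was lower by 1.12, Elovl1 by 1.05 and Elovl5 by 0.76 than the markers' change (exact permutation test, p = 0.00216 for each). The median of all genes on this scale was -0.90, so decreases of this size were common among all genes. Elovl6 had a difference of -0.58 (exact permutation test, p = 0.00649) and Elovl3 one of -0.45 (exact permutation test, p = 0.143). By limma, the difference of Scd2 passed without HFD mouse 2 (-0.24, adjusted p = 0.0464), and that of Elovl3 passed without HFD mouse 2 or IMC-treated mouse 2, 4 or 6 (-0.61 to -0.51). Scd1 was the only one of the 8 genes with a positive difference on this scale.

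**Figure D4:**
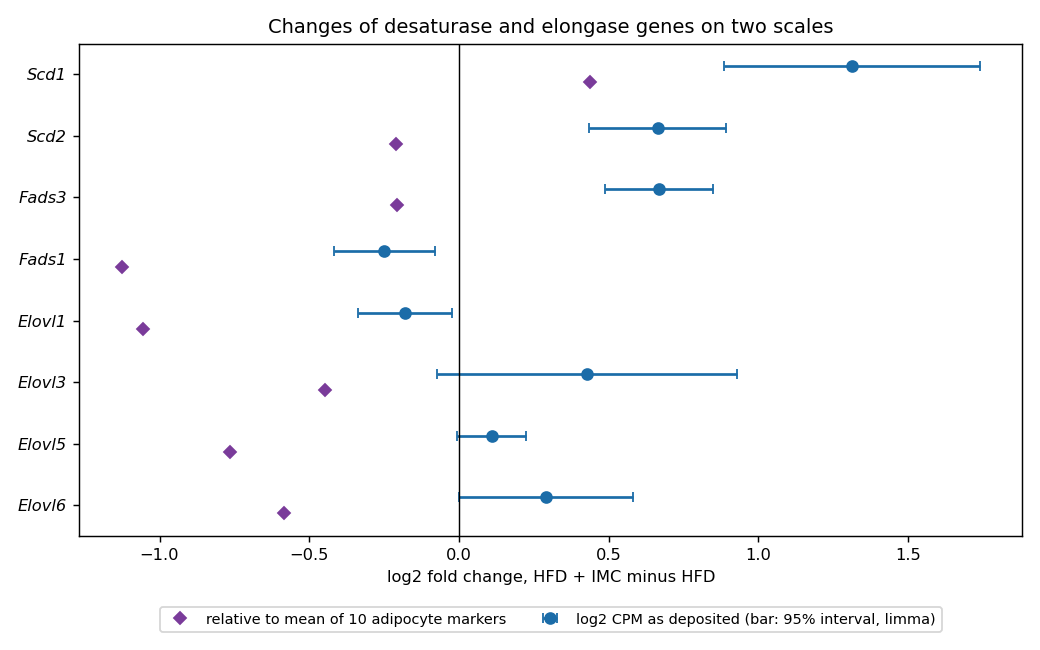
Log2 fold change of each gene (horizontal axis, IMC-treated minus HFD mice) on the deposited values (blue circles, with the 95% interval from limma) and relative to the mean of 10 adipocyte markers (purple diamonds, without interval). Scd1 lies at 1.31 on the first scale and at 0.44 on the second, and the other 7 genes lie below 0 on the second.

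Elovl3 is also a gene of thermogenic fat, and the markers of that cell type were at low levels. Ucp1 and Ppargc1a were not analysed here. Of the 4 other markers, Cidea rose by 1.15 (SE 0.32, adjusted p = 0.0118 by limma) and Cox8b by 0.40 (SE 0.12, adjusted p = 0.0147 by limma) on the log2 scale, and Cox7a1 and Dio2 did not pass. Their summed level was between 12.2 and 18.7 CPM in HFD mice and between 16.9 and 23.5 CPM in IMC-treated mice. The part of these markers in the values of Elovl3 was not tested.

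For each gene, the genes with the most similar pattern were found by the SD of their log2 ratio over the 11 mice, as a description. The SD spans both groups, so a small value requires a similar fold change between the groups, and it does not show that genes followed each other within a group. For Scd1 the nearest were B3galt2 (SD 0.18), Ryr2 (SD 0.19) and Adipoq (SD 0.19), while the median gene had 0.78. For Scd2 they were Plcb1, Zdhhc2 and Laptm4b, with SDs from 0.09 to 0.10. For Fads3 the nearest was Sdpr, which encodes a caveola protein, with an SD of 0.05, and then Mmd and Hsdl2. Nearest to Fads1 were Manba, Smagp and Orai1 with an SD of 0.08 for each. The lysosomal membrane gene Lamp1 (SD 0.06) was among the nearest to Elovl1, after Nqo2 and Gltp. Anapc1, Ireb2 and Armc8 were nearest to Elovl5, and Hoxc6, Pcsk6 and Oip5 to Elovl6. The nearest gene to Elovl3 was Rnd2 with an SD of 0.24, where the median gene had 0.48.

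The genes around the desaturases and elongases were read from lists chosen with earlier results of these data known. Beside the counts below, 20% of all genes were called as higher and 21.0% as lower. Of 8 genes that supply palmitate or its precursors, 6 rose and 0 fell. Fasn, which encodes fatty acid synthase, rose by 0.39 on the log2 scale (SE 0.12, adjusted p = 0.0222 by limma), Acaca, encoding the acetyl-CoA carboxylase that makes malonyl-CoA, by 0.57, and Me1, a source of NADPH, by 0.51. The median of this list was 0.42. Of the 7 acyl-CoA synthetases and transporters analysed, 2 rose, Acsl1 by 0.91 and Acss2 by 0.46, and 0 fell. The list for electron supply held 6 genes of cytochrome b5 and its reductase family, and which of them serve the desaturases was not tested. All 6 were called, 4 as higher and 2 as lower. The cytochrome b5 genes Cyb5b and Cyb5a rose by 0.61 and 0.26. Genes of the reductase family went both ways, since Cyb5r2 rose by 0.81 and Cyb5r3 by 0.15, whereas Cyb5r4 fell by 0.31 and Cyb5r1 fell by 0.20. Cyb5r3 and Cyb5r1 are named to complete the list, after their values were seen.
The later steps of the elongation cycle, which reduce and dehydrate the extended chain, had 4 of 6 genes higher and 0 lower. Hacd2, a dehydratase of this cycle, rose by 0.76 on the log2 scale (SE 0.09, adjusted p = 7.94e-05 by limma). Hsd17b12, the ketoacyl reductase, and Tecr, the enoyl reductase, each rose by 0.26. Among the other desaturases and elongases, Degs1, the ceramide desaturase, rose by 0.13 (SE 0.04, adjusted p = 0.0278 by limma), and Fads6 had a log2 fold change of -0.24 (adjusted p = 0.247 by limma). The other 6 genes of that list were not analysed here.

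Of 12 genes that regulate desaturase and elongase genes, 9 rose and 1 fell, against 20% of all genes called as higher and 21.0% as lower. The median log2 fold change of this list, also chosen with earlier results known, was 0.35. Srebf1 encodes the sterol regulatory element binding protein of fatty acid synthesis and had 7.50 ± 0.18 log2 CPM in HFD mice (SD, n = 5). After IMC it had 8.29 ± 0.20 log2 CPM (SD, n = 6), a rise of 0.79 (SE 0.10, adjusted p = 8.95e-05 by limma) without overlap of the groups. Insig1, which holds that protein in the endoplasmic reticulum and is itself one of its targets, rose by 0.91 (SE 0.10, adjusted p = 3.5e-05 by limma). Mlxipl, encoding the carbohydrate response element binding protein, rose by 0.62 (SE 0.13, adjusted p = 0.00188 by limma). Pparg rose by 0.70 and Rxra by 0.35. Nr1h2, the gene of a liver X receptor, fell by 0.19 and is named because it was the only decrease of the list. Nr1h3, also a liver X receptor gene, rose by 0.16 (adjusted p = 0.0340 by limma) and is named beside it, after its value was seen.

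**Figure D5:**
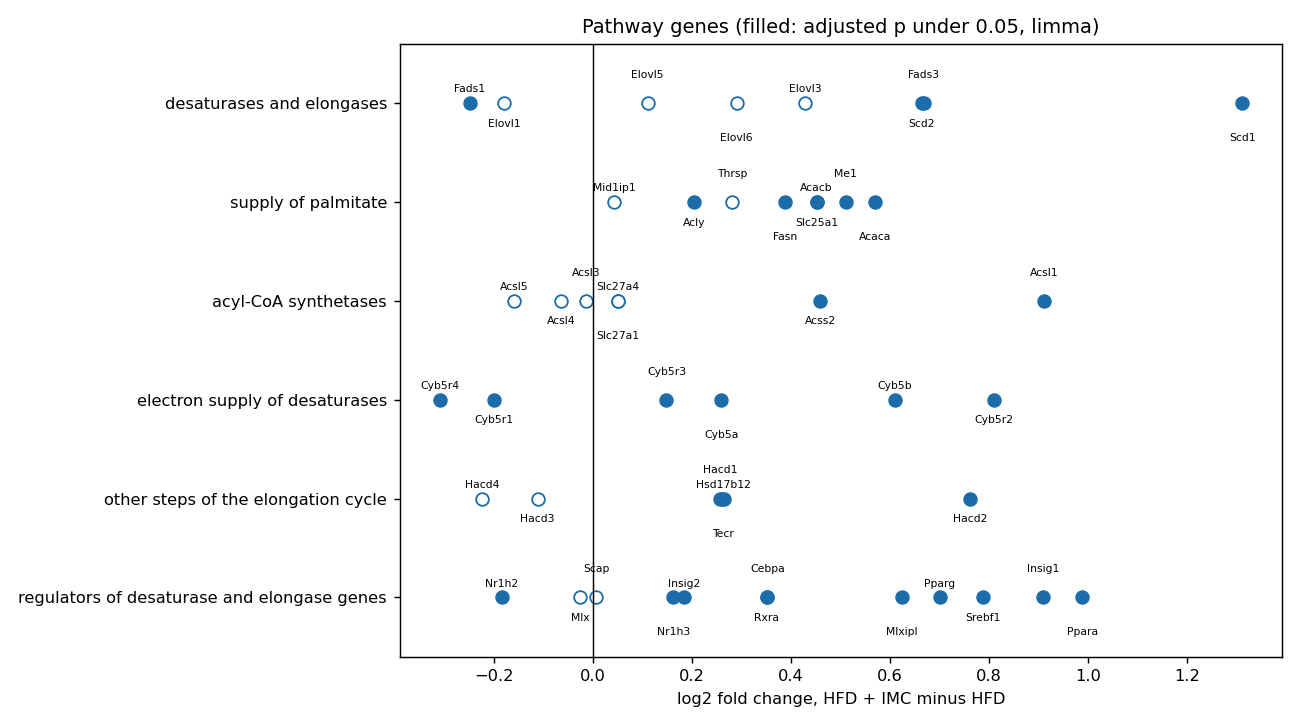
Log2 fold change (horizontal axis, IMC-treated minus HFD mice) of the 8 genes and of the genes in 5 lists around them, with filled points at an adjusted p under 0.05 by limma. All points of the palmitate list lie above 0, and 9 of 12 regulators are filled on the right of 0.

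Promoter sequences of RefSeq (GRCm38.p6), from 250 bases before to 50 bases after the start, were at hand for Fads3, Elovl1, Elovl5 and Elovl6. They are shown because no window was at hand for Scd1, Scd2, Fads1 and Elovl3. The genes shown range from a clear rise to a decrease that did not pass. The largest rise, that of Scd1, and the called decrease of Fads1 are not covered. They were searched for motifs of the regulators above and for the general NF-Y and GC boxes. Capitals mark matches, on either strand, to a sterol regulatory element (TCACNCCAC), an E-box (CACGTG), the NF-Y box (CCAAT), a GC box (GGGCGG), the DR1 and DR4 half-site pairs of nuclear receptors or the carbohydrate response element. The windows are on the plus strand, at chr19:10041298-10041597 for Fads3, chr4:118427843-118428142 for Elovl1, chr9:77917115-77917414 for Elovl5 and chr3:129532136-129532435 for Elovl6.
Fads3: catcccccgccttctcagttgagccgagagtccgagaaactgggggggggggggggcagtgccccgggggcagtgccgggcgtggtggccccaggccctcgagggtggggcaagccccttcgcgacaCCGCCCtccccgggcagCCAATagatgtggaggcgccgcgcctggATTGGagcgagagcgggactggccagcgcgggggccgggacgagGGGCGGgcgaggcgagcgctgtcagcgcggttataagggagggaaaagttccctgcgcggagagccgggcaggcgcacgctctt
Elovl1: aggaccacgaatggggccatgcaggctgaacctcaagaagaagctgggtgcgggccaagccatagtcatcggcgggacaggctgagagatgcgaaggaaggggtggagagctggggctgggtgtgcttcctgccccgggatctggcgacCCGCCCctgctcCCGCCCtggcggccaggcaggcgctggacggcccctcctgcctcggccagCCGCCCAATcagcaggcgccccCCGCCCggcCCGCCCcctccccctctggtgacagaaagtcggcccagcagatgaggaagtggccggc
Elovl5: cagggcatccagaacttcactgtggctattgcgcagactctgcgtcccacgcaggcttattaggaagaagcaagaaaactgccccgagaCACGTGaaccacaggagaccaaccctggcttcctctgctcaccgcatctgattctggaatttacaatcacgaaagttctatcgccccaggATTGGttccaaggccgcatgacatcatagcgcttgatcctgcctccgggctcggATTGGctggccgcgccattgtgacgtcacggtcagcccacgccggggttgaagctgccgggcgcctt
Elovl6: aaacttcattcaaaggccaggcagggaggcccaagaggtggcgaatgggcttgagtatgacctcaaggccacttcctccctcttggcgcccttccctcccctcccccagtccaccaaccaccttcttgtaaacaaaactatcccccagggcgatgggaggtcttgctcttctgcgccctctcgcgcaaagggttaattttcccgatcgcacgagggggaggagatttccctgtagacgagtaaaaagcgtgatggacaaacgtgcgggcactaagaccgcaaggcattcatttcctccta
The Fads3 window held 2 NF-Y boxes and 2 GC boxes. The Elovl1 window held 5 GC boxes and 1 NF-Y box that overlaps one of them, and a second annotated start of that gene had 2 GC boxes. Elovl5 had 1 E-box and 2 NF-Y boxes, and Elovl6 had 0 matches to any of these motifs. Of 32851 promoter windows of all genes, 37.4% held an NF-Y box, 35.7% a GC box, 7.15% an E-box and 1.24% a sterol regulatory element. Over the 12440 windows of genes in the deposited table, a GC box was held by 61.4%, an NF-Y box by 37.2%, an E-box by 9.73% and a sterol regulatory element by 1.17%, so GC boxes were common among the genes measured. The DR1 pair was held by 0.0396% of the 32851 windows and by 0.0241% of the 12440 windows. For the DR4 pair these shares were 0.0152% and 0%, and the carbohydrate response element was held by 0 windows of either set. The sterol regulatory element, the half-site pairs and the carbohydrate response element had no match in the windows shown, which says only that these letters are not in them. These exact letters were rare or absent over all windows, so the lack of a match sets the windows shown apart from few others.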

How the data were processed

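RNA of gonadal fat from 11 mice was sequenced from directional mRNA libraries. The authors used Trim Galore for trimming and STAR for alignment and gene counts on mm10 with UCSC transcripts. The authors filtered out genes with low counts in every sample, and deposited log2 CPM, scaled by the upper quartile with edgeR, of 12787 genes. The 5 columns of the authors' own comparison (fold change, mean level, statistic, p and FDR) were not used.

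Groups came from the treatment label. The main test was limma 3.58.1 in R 4.3.3 (lmFit, eBayes with trend) on the deposited log2 CPM of all genes, with the group as the only factor, Benjamini-Hochberg adjustment and a threshold of 0.05. The authors tested counts with edgeR, whereas limma fits the deposited log2 values. Gene ratios were tested by exact permutation (two-sided, 462 splits, smallest p 0.00216). Of 8 planned ratios, 5 could be tested. Reads were recovered from the steps of the CPM (100% of values whole within 0.01 reads, a tolerance that grew in proportion above 10000 reads) and used for depth and alternative scalings. A read was worth 0.0403 to 0.0450 CPM. The limma fit and the recovery were tested on simulated data.

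The genes, lists and tests were chosen with earlier results of these data known. Named were all members, up to 4 genes of smallest p per list, Fasn, Srebf1 and Mlxipl, and the 3 genes most similar to each member. Lengths and overlaps came from GENCODE M21 and promoters from RefSeq. Alternatives were limma without a trend, a filter at a mean log2 CPM of 1, limma voom on recovered reads, a constant of 2 reads, total-read and median-of-ratios scaling, and leaving out each mouse.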

Additional observations from a re-analysis of the deposited data

Results flagged for a closer look

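The log2 ratio of Scd1 to Scd2 was 3.52 in HFD mouse 3, below the other 4 HFD mice, which lay between 3.93 and 4.04. The gap to the nearest mouse was 0.793 of the range of the group, above the critical value of 0.71 for 5 samples. This mouse had the lowest Scd1 value of its group, 12.22 log2 CPM. It was 1 of 42 groups of values examined for a sample far from the others, of which chance alone flags about 1 in 20. The ratio was higher in IMC-treated mice with or without this mouse.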

How the results depend on the processing

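The calls of Scd1, Scd2, Fads3 and Elovl5, and the ratios of Scd1 to Scd2 and to Elovl6, stayed on the same side of the threshold under all alternatives, and no value changed sign. With each mouse left out, the log2 fold change ranged from 1.21 to 1.40 for Scd1, 0.59 to 0.72 for Scd2, 0.60 to 0.72 for Fads3, 0.08 to 0.13 for Elovl5, -0.30 to -0.21 for Fads1, -0.22 to -0.13 for Elovl1, 0.31 to 0.57 for Elovl3 and 0.20 to 0.38 for Elovl6. The ratio of Elovl6 to Elovl5 ranged from 0.10 to 0.25, that of Elovl6 to Elovl1 from 0.38 to 0.58 and that of Elovl6 to Elovl3 from -0.26 to -0.02. Relative to adipocyte markers, Scd2 ranged from -0.24 to -0.17 and Elovl3 from -0.61 to -0.32. With the total reads as library size, Elovl1 passed the test at -0.21 (adjusted p = 0.0229 by limma). Relative to Adipoq alone, Scd1 at 0.13 no longer passed, whereas Scd2 at -0.52, Fads3 at -0.51 and Elovl3 at -0.75 did. Adipoq rose by 1.18 and the mean of the markers by 0.87, so this reference lowers the difference of every gene by the same amount. By coding length, Scd2 ranked 2 and Fads3 ranked 3. Between 4299 and 5463 genes were called under the alternatives, against 5236. No paired analysis was possible because the labels give no numbers that pair mice of the groups.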

Other observations

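Markers of other cell types in the tissue also moved, where 20% of all genes were called as higher and 21.0% as lower. All 4 mast cell markers fell, among them Cma1, which fell by 1.56 on the log2 scale, and Mcpt4, which fell by 1.34. Of 6 progenitor and fibroblast markers 3 fell, Pi16 by 0.69 among them, and 0 rose. Of 5 endothelial markers only Cdh5 was called, with a rise of 0.41, and of 4 mesothelial markers only Wt1, with a decrease of 0.57. Both skeletal muscle markers analysed rose, Acta1 by 1.23 and Myh2 by 3.02. Krt79, the only marker analysed from the sebaceous and epithelial list, rose by 0.64.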
